A study of Mus musculus with 2 samples.

Results

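Keratinocyte-like cells, the epithelial cells of the epidermis, are described here from a pair of scRNAseq libraries of mouse embryonic skin. They were chosen by their own keratin counts. A cell was taken when it held at least 30 UMIs (unique molecular identifiers, counted transcripts) of *Krt14*, *Krt5*, *Krt15*, *Krt1*, *Krt10* and *Krtdap* together. It also had to hold at most 10 UMIs of the pigment cell genes *Dct*, *Pmel* and *Mlana*. The rule took 83 of 2368 cells, of which 74 of 828 were in the HIRA KO library and 9 of 1540 in the HIRA WT library. A cell was called suprabasal when *Krt1* plus *Krt10* exceeded *Krt14* plus *Krt5* plus *Krt15*, and basal otherwise.

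The study asked what the histone chaperone HIRA does in the melanocyte lineage. A Cre recombinase driven by the *Tyr* promoter (TyrCreB, autosomal) recombined floxed *Hira* and switched on a lox-stop-lox tdTomato reporter at *Rosa26*. The HIRA WT embryo was TyrCre::*Hira* wt/wt:tdTomato and the HIRA KO embryo was TyrCre::*Hira* fl/fl:tdTomato, both at E15.5 and on a mixed strain close to C57BL/6J. Trunk skin of 1 embryo per genotype was sorted for live tdTomato+ cells (DAPI negative) and run on the 10x Chromium 3′ platform. The labels do not name the embryo behind each library. This Cre also acts outside the melanocyte lineage, so sorted cells need not be pigment cells. The HIRA WT library held *Xist* and the HIRA KO library held Y-linked transcripts, so genotype and sex cannot be told apart.

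The HIRA WT library held 7073939 UMIs in 1546 barcodes and the HIRA KO library 5049514 UMIs in 846 barcodes. They shared 0 barcodes. After filtering, 1540 and 828 cells were kept. The median depth in HIRA KO was 9475 UMIs per keratinocyte-like cell and 5002 UMIs per other cell, and in HIRA WT it was 5487 and 3960 UMIs. With 1 library per genotype no test was made. All intervals are 95% intervals that cover counting error only, and "past 2-fold" means a log2 ratio of at least 1 or at most -1.

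The epidermis is renewed from a basal layer that sits on a basement membrane and makes keratins 5 and 14. Cells that leave this layer switch to keratins 1 and 10, and build desmosomes, barrier lipids and finally a cornified envelope. In the embryo a transient outer layer, the periderm, covers the stratifying epidermis, while WNT signals in the basal layer mark the hair placodes.

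The state of the targeted gene and of the reporter came first. *Hira* (ENSMUSG00000022702, chr16:18877037-18970309, plus strand of GRCm38) encodes the chaperone that deposits histone H3.3. HIRA KO keratinocyte-like cells held 14 *Hira* UMIs, or 19.8 per 1000000 UMIs of the class (CPM; 10.8 to 33.2), against 8.39 CPM in the other HIRA KO cells. The 9 HIRA WT keratinocyte-like cells held 2 *Hira* UMIs, 37.1 CPM with an interval of 4.49 to 134. The ranges overlapped, so loss of *Hira* RNA in HIRA KO keratinocyte-like cells was not detectable at this depth. A 3′ count does not show whether the floxed exon was removed. The tdTomato transcript gave 8 UMIs in HIRA KO keratinocyte-like cells (11.3 CPM) and 14.7 CPM in the other HIRA KO cells. In HIRA WT it gave 0 UMIs in 9 cells, which allows up to 55.7 CPM, beside 7.85 CPM in the other cells. A tdTomato UMI was seen in 8 of 74 HIRA KO keratinocyte-like cells (10.8%) and in 2 of 20 cells gated as macrophages by their C1q genes (10%), at median depths of 9475 and 8125 UMIs, and after thinning each cell to 2000 UMIs in 1 of 69 and 0 of 20. The reporter transcript thus set keratinocyte-like cells apart from neither the macrophage-gated cells nor the rest of the library.

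The first question was how many such cells each library held and how sharply they stood apart. They made up 8.94% of HIRA KO cells (7.08 to 11.1, Clopper-Pearson) and 0.584% of HIRA WT cells (0.268 to 1.11). These shares describe 1 sorted embryo each. In HIRA KO the members held a median of 320.5 UMIs of the 6 genes, 4.44% of their UMIs. The range ran from 39 to 2251. HIRA KO cells below the minimum held a median of 2 UMIs and at most 29. Around the minimum, 5 HIRA KO cells held 20 to 29 UMIs and 1 cell held 30 to 39. In HIRA WT the members held 32 to 471 UMIs, and the highest cell below the minimum held 7 within the pigment limit and 17 without regard to it. The HIRA WT members were thus fewer and held fewer keratin UMIs. The limit on pigment genes removed 1 HIRA KO cell, which held 271 UMIs of the 6 genes and 65 of the pigment genes, and 2 HIRA WT cells. No member of either library held more than 2 pigment gene UMIs. Scrublet, which scores likely doublets, called 1 of the 74 HIRA KO members and 0 of the 9 HIRA WT members, and these cells were kept.

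Epidermal genes outside the rule were read against the 20 HIRA KO macrophage-gated cells, which should lack them. *Trp63* encodes p63, the transcription factor that establishes the epidermal lineage. It was seen in 49 of 74 keratinocyte-like cells (66.2%) and in 0 of 20 macrophage-gated cells, at median depths of 9475 and 8125 UMIs. With each cell thinned to 2000 UMIs it was seen in 15 of 69 cells (21.7%) and 0 of 20. *Sfn* encodes stratifin, an epithelial 14-3-3 protein, and was seen in 74 of 74 cells against 3 of 20 (15%), at the same median depths. After thinning these counts were 65 of 69 (94.2%) and 0 of 20. The desmosomal plaque gene *Dsp* was seen in 66 of 74 cells (89.2%) and 2 of 20 (10%), at the same depths, and after thinning in 51 of 69 (73.9%) and 1 of 20 (5%). The name keratinocyte therefore rested on several genes that the rule had not used. Of the 13 such markers, *Dsg3*, a basal desmosomal cadherin, was near absent with 1 UMI in 74 cells. Others were scarce too: *Grhl2* had 4 UMIs in basal and 2 in suprabasal cells, and *Cdh3* had 12 and 5.

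**Figure D1:**
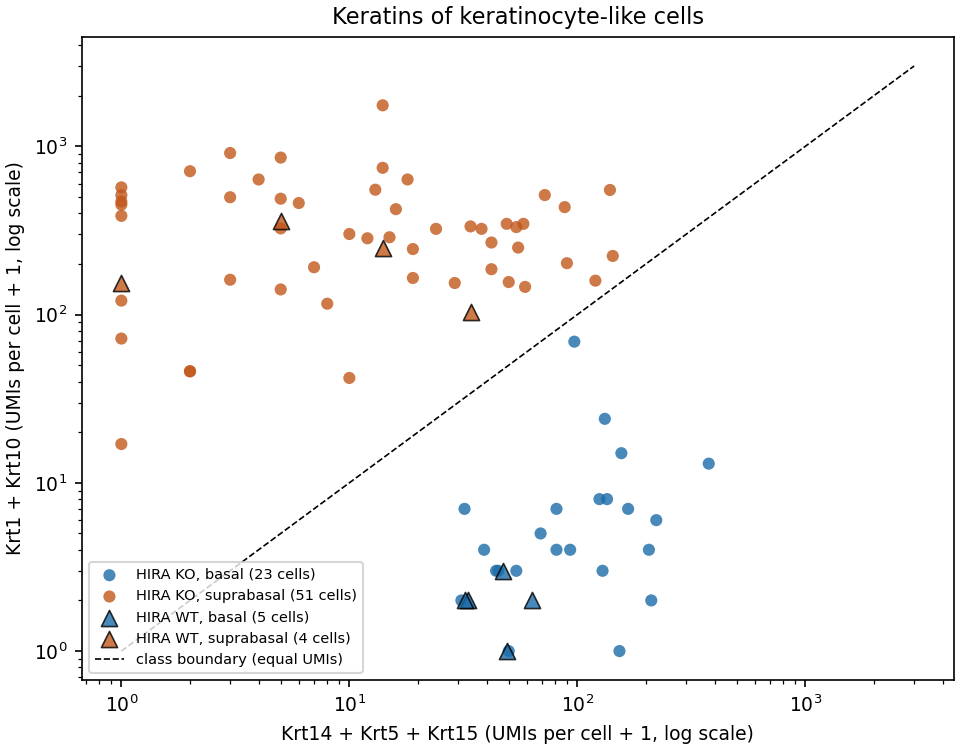
Each point is 1 keratinocyte-like cell, with UMIs of *Krt14*, *Krt5* and *Krt15* plus 1 on the horizontal log axis and UMIs of *Krt1* and *Krt10* plus 1 on the vertical log axis. Of 74 HIRA KO cells (circles) 51 lay above the dashed line of equal counts and 23 below it, with 4 and 5 of the HIRA WT cells (triangles).

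The keratins themselves defined the classes, so their values are a description of the choice. In HIRA KO 51 of 74 cells were suprabasal (68.9%, 57.1 to 79.2) and 23 were basal, with median depths of 9449 and 9501 UMIs per cell. In HIRA WT 4 of 9 were suprabasal (44.4%, 13.7 to 78.8), an interval that holds the HIRA KO share. The suprabasal fraction of a cell is the part of its *Krt1*, *Krt10*, *Krt14*, *Krt5* and *Krt15* UMIs that came from the first 2 genes. Its median was 0.0364 in basal and 0.969 in suprabasal cells, and 2 HIRA KO cells lay between 0.4 and 0.6, at 0.41 and 0.57. Most cells thus sat near an end of a range that the boundary divides.

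The 3 basal keratins differed in how far they fell across this boundary. *Krt14* (ENSMUSG00000045545, chr11:100203162-100207548, minus strand), a basal filament keratin, had 1300 UMIs in basal and 210 in suprabasal cells, a log2 ratio of CPM of -3.59 (-3.81 to -3.38). Its partner *Krt5* (ENSMUSG00000061527, chr15:101707070-101712898, minus strand) had 686 and 411 UMIs, a log2 ratio of -1.70 (-1.88 to -1.52). *Krt15* (ENSMUSG00000054146, chr11:100131758-100135928, minus strand), a basal keratin without a fixed partner, had 720 and 742 UMIs, -0.92 (-1.07 to -0.77). *Krt15* thus fell the least of the 3. *Krt15* UMIs outnumbered *Krt14* UMIs in 35 of 51 suprabasal cells and in 4 of 23 basal cells. In 19 suprabasal cells *Krt15* was seen without *Krt14*, and in 1 cell *Krt14* without *Krt15*. None of the 3 genes was seen in 8 suprabasal cells. *Krt15* was seen in 39 of 51 suprabasal cells (76.5%) and 0 of 20 macrophage-gated cells, at median depths of 9449 and 8125 UMIs, and after thinning in 31 of 46 (67.4%) and 0 of 20. Among the other HIRA KO cells it was seen in 101 of 754 (13.4%) at a median of 5002 UMIs, and after thinning in 39 of 736 (5.30%). *Krt14* was seen in 21 of 51 suprabasal cells (41.2%) and 2 of 20 macrophage-gated cells (10%), at median depths of 9449 and 8125 UMIs, and after thinning in 15 of 46 (32.6%) and 0 of 20.

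The suprabasal keratins rose much further. *Krt1* (ENSMUSG00000046834, chr15:101845426-101850794, minus strand) had 69 UMIs in basal and 8955 in suprabasal cells, a log2 ratio of 6.06 (5.72 to 6.42). *Krt10* (ENSMUSG00000019761, chr11:99385254-99389364, minus strand), its filament partner, had 111 and 9856 UMIs, 5.51 (5.24 to 5.79). Without the basal cell nearest the boundary these ratios were 6.70 and 6.15. *Krtdap* (ENSMUSG00000074199, chr7:30787896-30791097, plus strand), a secreted protein of differentiating keratinocytes, had 759 and 5444 UMIs, 1.88 (1.77 to 1.99).

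Genes that the rule left out were then compared between the classes in HIRA KO, to ask which programs moved with the keratin switch. Of 1695 genes with at least 50 UMIs over both classes, 172 were past 2-fold higher (10.1%) and 137 past 2-fold lower (8.08%) in suprabasal cells, with a median log2 ratio of -0.05. The classes were divided on keratin counts of the same cells, so each value describes the division. Of the lists of genes of known role, desmosome, barrier lipid and early differentiation genes stood higher on the suprabasal side, while basement membrane, WNT and cell cycle genes stood lower.

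Desmosomes rivet suprabasal cells to each other. The desmosome list summed to 6162 CPM in suprabasal and 2075 CPM in basal cells, a log2 ratio of 1.57 (1.43 to 1.71). Of its 7 genes with at least 50 UMIs, 6 were past 2-fold higher, beside 10.1% of all genes, and the median of the 7 was 1.81. *Dsg1a*, *Dsc3*, *Pkp1* and *Pkp3* reached the minimum of 50 through the suprabasal side, so nothing is read from this count. *Dsp*, the plaque protein that binds keratin, had 77 basal and 552 suprabasal UMIs, a log2 ratio of 1.88 (1.53 to 2.24). *Dsg1a*, a cadherin of the differentiated layers, had 8 and 153 UMIs, 3.29 (2.28 to 4.53). *Perp*, a membrane protein of desmosomes and a p63 target, had 263 and 1354 UMIs, 1.40 (1.21 to 1.60). These 3 genes thus stood on the same side, while *Dsg2*, another cadherin, had 6 and 3 UMIs, -1.96 (-4.59 to 0.26). The summed other junction genes did not follow: 0 of 5 read genes were past 2-fold higher and 2 were lower, beside 10.1% and 8.08% of all genes, and the list's log2 ratio was -0.48 (-0.70 to -0.25). Among them *Ctnnb1*, which encodes beta-catenin of adherens junctions and WNT signalling, had 80 basal and 58 suprabasal UMIs, -1.43 (-1.94 to -0.92), and *Epcam*, an epithelial adhesion gene, had 65 and 26 UMIs, -2.29 (-3.00 to -1.61). Without the cell that held 25 of the 65, *Epcam* had -1.70. Among scarcer members *Pvrl1*, a nectin, had 1 and 22 UMIs, 3.50 (0.87 to 8.86), and at least 1.85 without the basal cell that held the 1 UMI. *Cldn1* had -0.29 and *Tjp1* 0.87, but 1.75 (0.39 to 3.45) and 3.58 (0.97 to 8.94) without the periderm-like cell described below.

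Barrier lipids are made and carried by enzymes and binding proteins of the upper layers. This list rose from 3745 CPM in basal to 12373 CPM in suprabasal cells, a log2 ratio of 1.72 (1.62 to 1.83), with 4 of 5 read genes past 2-fold higher, beside 10.1% of all genes. *Fabp5*, the epidermal fatty acid binding protein, carried most of it, with 814 basal and 5190 suprabasal UMIs. *Elovl4*, which elongates fatty acids to the very long chains of skin ceramides, had 5 and 136 UMIs, a log2 ratio of 3.80 (2.54 to 5.45). *Sult2b1*, which sulfates cholesterol, had 10 and 118 UMIs, 2.60 (1.67 to 3.69). Both reached the minimum of 50 through the suprabasal side. So did *Elovl1*, with 3 basal and 74 suprabasal UMIs without the periderm-like cell described below. Nothing is therefore read from the count of 4 genes. Of the 25 listed genes 20 had too few UMIs to be read, so nothing is said of lipid synthesis as a whole.

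Genes of early spinous differentiation made up the most abundant list, at 13393 CPM in basal and 38659 CPM in suprabasal cells. The log2 ratio was 1.53 (1.48 to 1.58), and 10 of 15 read genes were past 2-fold higher, beside 10.1% of all genes. Members such as *Them5* and *Lgals3*, with 10 and 46 basal UMIs, reached the minimum for reading through the suprabasal side. Nothing is therefore read from this count. *Lgals7*, an epithelial galectin, had 1834 basal and 10221 suprabasal UMIs, a log2 ratio of 1.52 (1.44 to 1.59). *Them5*, an acyl-CoA thioesterase, had 10 and 280 UMIs, 3.84 (2.94 to 4.92), and 4.52 without the basal cell that held the most of its UMIs. *Ly6d*, a GPI-anchored surface protein, had 120 and 2155 UMIs, 3.20 (2.94 to 3.48), and 3.84 without the basal cell that held 45 of the 120. The amounts thus differed between members.

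Transcription factors of the epidermis rose less as a list, from 1987 to 3314 CPM, a log2 ratio of 0.74 (0.59 to 0.89) with 6 of 12 read genes past 2-fold higher, beside 10.1% of all genes. *Cebpa*, which couples cell cycle exit to differentiation, had 11 basal and 108 suprabasal UMIs, 2.33 (1.44 to 3.38). *Cebpa* reached the minimum for reading through the suprabasal side, so nothing is read from the count of 6 genes. *Klf4*, a factor needed for the barrier, had 36 and 134 UMIs, 0.93 (0.39 to 1.51). *Trp63* moved the other way, with 48 and 52 UMIs and a log2 ratio of -0.85 (-1.44 to -0.25), and so did *Tfap2b*, an AP-2 factor, with 32 and 17 UMIs, -1.88 (-2.82 to -0.98). Members of the list thus moved in both directions or not at all, as with *Cebpb*, at -0.04 (-0.44 to 0.37).

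NOTCH signalling promotes the basal to spinous switch. Its list had a log2 ratio of 0.82 (0.53 to 1.12), and 2 of 3 read genes were past 2-fold higher, beside the same 10.1%. *Hes1*, a NOTCH target that keeps spinous cells from early maturation, had 51 basal and 212 suprabasal UMIs, 1.09 (0.65 to 1.56), and 0.90 without 1 basal cell. *Nrarp*, a target that feeds back on the pathway, had 17 and 73 UMIs, 1.14 (0.36 to 1.99). *Nrarp* reached the minimum for reading through the suprabasal side, so nothing is read from the count of 2 genes. *Notch1*, the receptor, did not differ at this depth (0.04, -0.67 to 0.78). The receptors *Notch2* and *Notch3* had 1.70 (-0.06 to 4.10) and 0.80 (-0.70 to 2.60), and *Notch3* had 1.44 without the periderm-like cell described below.

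Genes that tie basal cells to the basement membrane fell from 742 to 216 CPM, a log2 ratio of -1.78 (-2.15 to -1.42), although 0 of the 18 reached 50 UMIs alone. *Col17a1*, the hemidesmosomal collagen XVII, had 20 basal and 0 suprabasal UMIs, where 0 allows up to 6.41 CPM, at least 13.0-fold lower. *Dst*, which links hemidesmosomes to keratin, had 30 and 11 UMIs, -2.41 (-3.56 to -1.37). *Itga6*, an integrin subunit of hemidesmosomes, had 14 and 4 UMIs, -2.77 (-4.83 to -1.10). These 3 genes thus lay on the side of the basal keratins, but not every member did. *Plec*, which encodes plectin and was the list's most abundant gene, had 18 and 30 UMIs, -0.23 (-1.12 to 0.70), and *Fras1* was higher in suprabasal cells at 1.52 (0.13 to 3.25), and 2.21 without 1 basal cell.

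The WNT and placode list fell from 1304 to 325 CPM, a log2 ratio of -2.01 (-2.29 to -1.72). Only 2 of its 25 genes could be read, and 1 of these was past 2-fold lower, beside 8.08% of all genes. *Wnt6*, an epidermal WNT ligand, had 23 basal and 0 suprabasal UMIs, at least 14.9-fold lower against the limit of 3 counts. *Ptch1*, a hedgehog receptor and target, had 27 and 6 UMIs, a log2 ratio of -3.13 (-4.70 to -1.83). Receptors and ligands of the EGF and FGF families fell less, with a list log2 ratio of -0.69 (-1.10 to -0.27). *Fgfr2*, the receptor for keratinocyte growth factors, had 33 and 11 UMIs, -2.55 (-3.68 to -1.53). These 3 genes thus lay on the basal side, but other members did not. *Wnt4*, another ligand, had -0.17 (-0.90 to 0.58), while the receptors *Erbb2* and *Fgfr3* were higher in suprabasal cells, at 1.50 (0.22 to 3.04) and 2.36 (0.32 to 5.50), and *Fgfr3* had 3.32 without 1 basal cell.

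**Figure D2:**
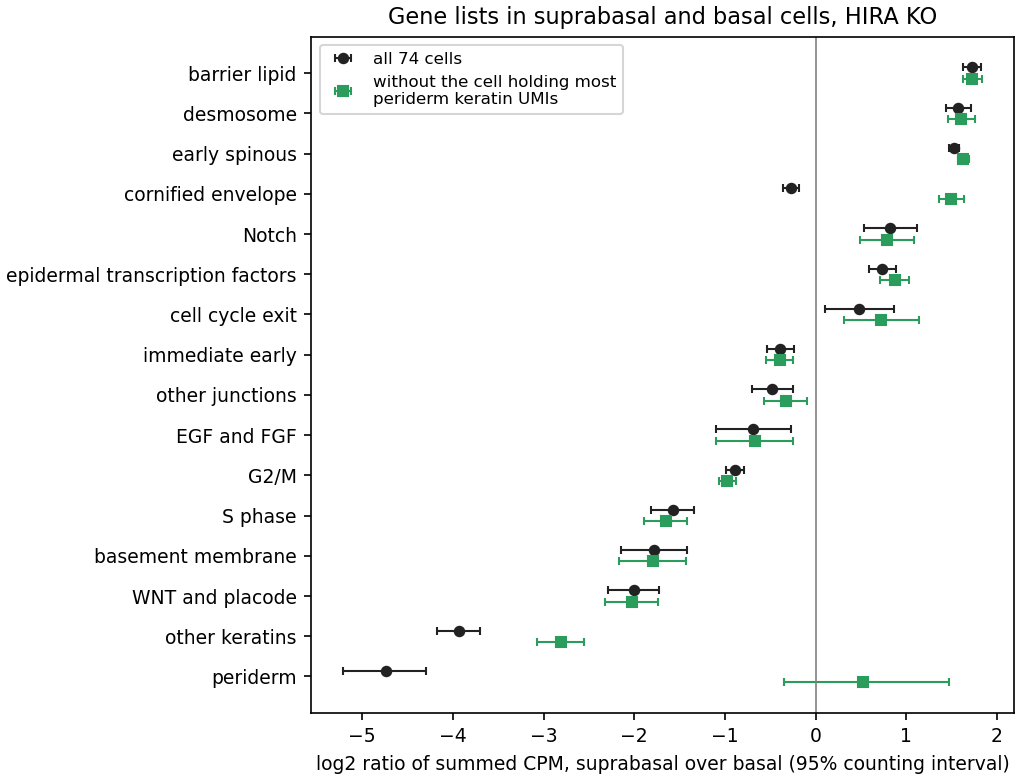
Points give the log2 ratio of suprabasal to basal summed CPM for each gene list in HIRA KO, with 95% counting intervals, for all 74 cells (black circles) and without the cell that held most periderm keratin UMIs (green squares). The cornified envelope list moved from -0.27 to 1.50 and the periderm list from -4.74 to 0.52, while lists such as desmosome and barrier lipid stayed above 1.

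A basal-side cell with periderm-like keratins set the sign of 2 lists and moved the lists of other keratins and early spinous genes. It held 692 of the 700 UMIs of *Krt4*, *Krt6a*, *Krt7*, *Krt13* and *Krt19* among the 74 HIRA KO members, and no other member held more than 1. These keratins mark simple and outer epithelia, and 4 of the 5 belong to the list of periderm markers (*Krt13* does not). The cell also held 55 of 56 UMIs of *Upk1b* and 50 of 50 of *Upk3bl*, uroplakin genes known from urothelium, so periderm-like names a resemblance only. There were 526 of 542 UMIs of *Cnfn*, 267 of 269 of *Sprr1a* and 46 of 50 of *Sprr1b*, which encode parts or precursors of cornified envelopes, in the same cell. The cell had 15831 UMIs, 2.24% of all member UMIs, from 3282 genes, and 4.69% of them were mitochondrial. Its class rested on 132 *Krt15* UMIs, since it held 1 UMI each of *Krt14* and *Krt5*, 4 of *Krt1* and 3 of *Krt10*. *Trp63* and *Krt17* were at 0 in it, and *Lgals7* gave 9 UMIs. Of the periderm list *Krt8* and *Krt18* were present at 4 and 17 UMIs, whereas *Grhl3* and *Cldn6* were at 0.

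With that cell the periderm list had a log2 ratio of -4.74 (-5.21 to -4.30), and without it 0.52 (-0.35 to 1.47). The list of other keratins went from -3.93 (-4.18 to -3.70) to -2.81 (-3.07 to -2.56), and its sign turned (0.30) when *Krt15* was dropped from the class rule, which moved this cell and another to the suprabasal side. The cornified envelope list had -0.27 (-0.36 to -0.19) over all cells and 0.32 when each cell's CPM was averaged. It had 1.50 (1.36 to 1.64) without that cell. Then 5 of 7 read genes were past 2-fold higher beside 10.7% of all genes, and 0 were past 2-fold lower beside 7.83%. Of the 5, *Lor*, *Evpl*, *Csta1* and *Sbsn* reached the minimum for reading through the suprabasal side. They had 2, 1, 13 and 18 basal UMIs, against 105, 62, 110 and 359 suprabasal UMIs. Nothing is therefore read from these counts of cornified genes. Early spinous genes went from 10 to 14 of 15 past 2-fold higher, beside 10.1% and 10.7% of all genes. Among them *Them5* and *Lgals3* also reached the minimum through the suprabasal side. Without that cell they had 10 and 26 basal UMIs, against 280 and 920 suprabasal UMIs. Nothing is read from the early spinous counts either. The cornified direction was thus set by 1 cell of 74.

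Within the cornified list *Dmkn*, a secreted protein of the upper layers, was the most abundant, with 408 basal and 2011 suprabasal UMIs and a log2 ratio of 1.34 (1.18 to 1.50). *Casp14*, a protease of terminal differentiation, had 0 basal and 43 suprabasal UMIs, at least 7.35-fold higher against the limit of 3 counts. *Sbsn*, suprabasin, had a ratio of 1.35 over all cells and 3.26 without the periderm-like cell, which held 54 of its 72 basal UMIs. *Lor*, which encodes loricrin of the late envelope, had 105 suprabasal UMIs, of which 92 came from 1 cell. Its log2 ratio was 2.58 with that cell and -0.43 (-1.77 to 0.98) without it. The periderm-like cell held 7 of its 9 basal UMIs, and the ratio was 4.65 (2.76 to 7.72) without that cell and 1.64 (-0.50 to 4.83) without both. *Flg* and *Flg2*, the filaggrin genes of the granular layer, were at 0. The suprabasal side was thus rich in spinous genes and held few transcripts of the last steps.

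The ranking of all genes named genes inside and outside the lists. Genes with 0 basal UMIs, such as *Rbp2* with 77 suprabasal UMIs, were ranked with 0 read as 3 counts, so their true place may be higher. Ranked so, the largest ratio was that of *Serpinb12*, a serine protease inhibitor, with 1 basal and 125 suprabasal UMIs and a log2 ratio of 6.00 (3.50 to 11.3). When the basal cell with its 1 UMI was left out, *Serpinb12* was at least 4.37 higher on the log2 scale. *Npl*, which breaks down sialic acid, had 4 and 231 UMIs, 4.89 (3.51 to 6.78). *Agpat3*, an acyltransferase of phospholipid synthesis, *Rbp2* and *Rdh12*, which bind and reduce retinal, and *Lgals3*, a galectin, were also among the 15 largest. For 0 of these 15 genes did 1 cell hold over 80% of the suprabasal UMIs. At the other end, 13 of the 15 smallest ratios had over 80% of their basal UMIs in 1 cell, *Krt6a*, *Sprr1a* and *Psca* among them. The exceptions were *Cxcl14*, a chemokine, with 222 basal and 9 suprabasal UMIs and -5.59 (-6.74 to -4.64), and *Lmo1*, a transcriptional cofactor, with 83 and 4 UMIs and -5.34 (-7.25 to -3.93). *Cxcl14* was seen in 18 of 23 basal cells (78.3%), 7 of 51 suprabasal cells (13.7%) and 2 of 20 macrophage-gated cells (10%), at median depths of 9501, 9449 and 8125 UMIs. After thinning these were 13 of 23 (56.5%), 4 of 46 (8.70%) and 0 of 20.

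The same ranking without the periderm-like cell was made after its values were seen. *Cxcl14* and *Lmo1* then had the lowest ratios, followed by *Ccnd2*, a G1 cyclin, at -4.99 (-5.85 to -4.24), and *Pdgfa*, a ligand for dermal fibroblasts, at -4.69 (-6.18 to -3.50). *Dcn*, a dermal proteoglycan gene of the mesenchymal list, stood among the 10 lowest at -3.55 (-4.22 to -2.93). All 10 mesenchymal genes were detected in basal and in suprabasal cells, summing to 1379 and 878 CPM. The most abundant was *Dcn* with 141 UMIs on the basal side and *Col1a2* with 95 on the suprabasal side. The list ratio of -0.65 turned to 0.73 at a minimum of 20 rule-gene UMIs. None of the list was at 0, the macrophage-gated cells held 2957 CPM of it with 195 of 521 UMIs in 1 cell (2011 CPM without it), and its part in the *Dcn* difference was not tested.

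A subset of basal-side cells stood out by *Krt17*, a keratin of appendages and embryonic epidermis, and was chosen after its values were seen. Over both classes *Krt17* had 419 basal and 47 suprabasal UMIs, -4.12 (-4.59 to -3.68), and 8 basal-side cells with at least 20 UMIs each held 367 of the 466 (78.8%). Their median depth was 10793.5 UMIs, against 7775 in the other 15. *Sox9*, a factor of hair progenitors, had 14 UMIs in the 8 cells and 3 in the 15, a log2 ratio of 3.01 (1.17 to 5.45). *Ptch1* had 18 and 9 UMIs, 1.79 (0.56 to 3.13), and *Gli1*, the effector of hedgehog signalling, had 8 and 1 UMIs, 3.79 (0.89 to 9.26). Leaving out each cell in turn moved the *Gli1* ratio to between 2.15 and 4.03. *Krt14* was lower in the 8 cells, at -1.44 (-1.65 to -1.23), while *Krt10* and *Krt1* were higher, at 1.85 (1.26 to 2.47) and 1.17 (0.45 to 1.91). Of the 8, the cell nearest the class boundary held 42 of their 75 *Krt10* and 26 of their 39 *Krt1* UMIs. Nothing is therefore read from these 2 keratins for the set as a whole. Other lists moved with this set. G2/M genes had 0.71 (0.57 to 0.85) and immediate early genes 0.65 (0.42 to 0.88). The same cell nearest the boundary held 132 of the 304 immediate early UMIs of the 8 cells. The immediate early value is therefore not read as a trait of the set. Glial genes had 66 UMIs in the 8 cells and 16 in the 15 (751 and 105 CPM), 2.84 (2.03 to 3.72). All 10 glial genes were detected in the 8 cells and 7 in the 15, where *Foxd3*, *Gfra3* and *Ngfr* were at 0. The most abundant were *Pou3f1* in the 8 cells and *Erbb3* in the 15. The cell with 5 of the 8 *Gli1* UMIs also held 33 of the 66 glial UMIs, and without it the glial ratio was 2.17. The part of glial RNA in these differences was not tested. Not all placode genes moved this way. *Lef1*, a WNT effector, had 2 and 17 UMIs, -2.30 (-5.45 to -0.22), with -3.10 to -1.84 when each cell was left out, and *Dkk4* and *Wnt3* had 0 UMIs in the 8 cells against 8 and 6 in the 15. *Shh*, *Edar* and *Lhx2* each had 3 or fewer UMIs in both sets. The periderm-like cell, with no *Krt17*, was among the 15. Of the 8 cells, 2 were the basal-side *Krt79* cells described at the end, with 72 and 74 *Krt17* UMIs. They held 1 and 0 UMIs of *Krt14*, and *Sox9*, *Ptch1* and *Gli1* were at 0 in both.

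**Figure D3:**
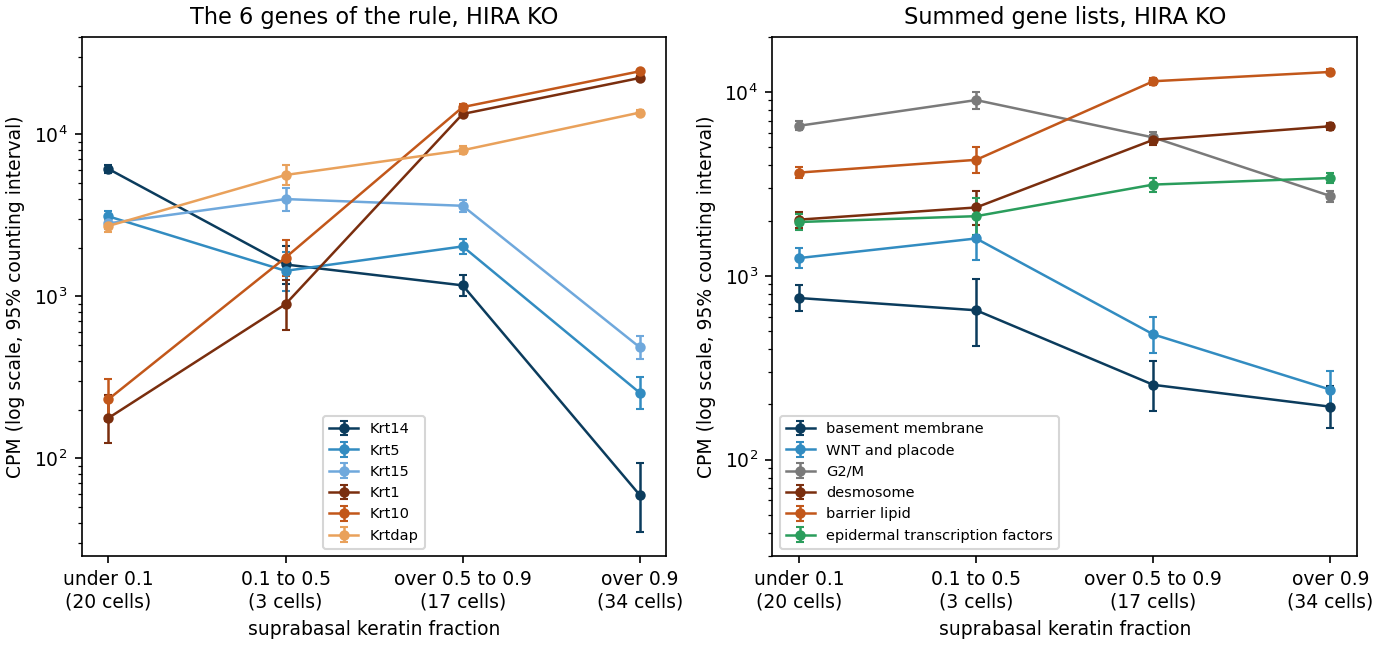
CPM (log axis, 95% counting intervals) of the 6 rule genes (left) and of 6 summed lists (right) in 4 bins of HIRA KO cells by suprabasal fraction. *Krt14* falls from 6114 to 59.3 CPM between the outer bins, while desmosome genes rise from 2023 to 6520 CPM.

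How the programs changed along the range was read in 4 bins of the suprabasal fraction, which held 20 cells (under 0.1), 3 cells (0.1 to 0.5), 17 cells (over 0.5 to 0.9) and 34 cells (over 0.9). *Krt14* went from 6114 to 1571, 1168 and 59.3 CPM. *Krt15* went from 2821 to 3982, 3620 and 484 CPM. The bins were cut on these keratins, so their values describe the bins. Desmosome genes gave 2023, 2357, 5499 and 6520 CPM, and barrier lipid genes 3648, 4280, 11455 and 12870 CPM. These lists had made most of their rise by the bin over 0.5 to 0.9. *Them5* rose more evenly on the log scale, at 39.4, 54.2, 292 and 764 CPM, and so did *Elovl4*, at 14.8, 54.2, 152 and 366 CPM. Basement membrane genes gave 758, 650, 255 and 194 CPM. The bin of 3 cells sets no step in these orders, since the steps described lie between the other 3 bins.

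Cell cycle genes were read because the basal layer renews the epidermis. The S phase list fell from 1546 CPM in basal to 519 CPM in suprabasal cells, a log2 ratio of -1.57 (-1.81 to -1.34). The G2/M list fell from 6940 to 3754 CPM, -0.89 (-0.98 to -0.79), with 9 of 19 read genes past 2-fold lower beside 8.08% of all genes, and -1.07 without 1 suprabasal cell. *Ccnb2*, a mitotic cyclin, had 45 basal and 22 suprabasal UMIs, -2.0 (-2.80 to -1.23). *Top2a*, the topoisomerase of condensing chromosomes, had 59 and 40 UMIs, -1.52 (-2.14 to -0.92). Both phases thus fell, though suprabasal cells kept a sizeable G2/M signal. *Cdkn1a*, which encodes the cell cycle inhibitor p21, rose, with 22 and 141 UMIs and a log2 ratio of 1.72 (1.06 to 2.44), within a short list of exit genes at 0.48 (0.10 to 0.86), which had 1.05 at a minimum of 20 rule-gene UMIs, 1.32 after thinning and 0.72 without the periderm-like cell. *Cdkn1c*, the inhibitor p57 and the other read gene of that list, went the other way, with 48 and 56 UMIs, -0.74 (-1.32 to -0.15).

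Cell by cell the G2/M counts fell into a high and a low set with a gap between them, and the limit was set after these values were seen. At least 50 G2/M UMIs per 10000 UMIs were held by 12 of 23 basal cells (52.2%, 30.6 to 73.2) and 11 of 51 suprabasal cells (21.6%, 11.3 to 35.3). The high cells held 71.5 to 152 on the basal and 70.7 to 186 on the suprabasal side, and the low cells at most 40.2 and 39.8. Median depths of the high and low sets were 8706 and 9501 UMIs in basal cells and 8015 and 9633 UMIs in suprabasal cells. The deepest basal cell, at 29534 UMIs, was in the high set, and the deepest suprabasal cell, at 24722 UMIs, was in the low set. The part of depth in this division was not tested. With each cell thinned to 2000 UMIs, at least 10 G2/M UMIs were held by 12 of 23 and 10 of 46 cells (21.7%). High cells were thus present on both sides, including at fractions over 0.8.

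**Figure D4:**
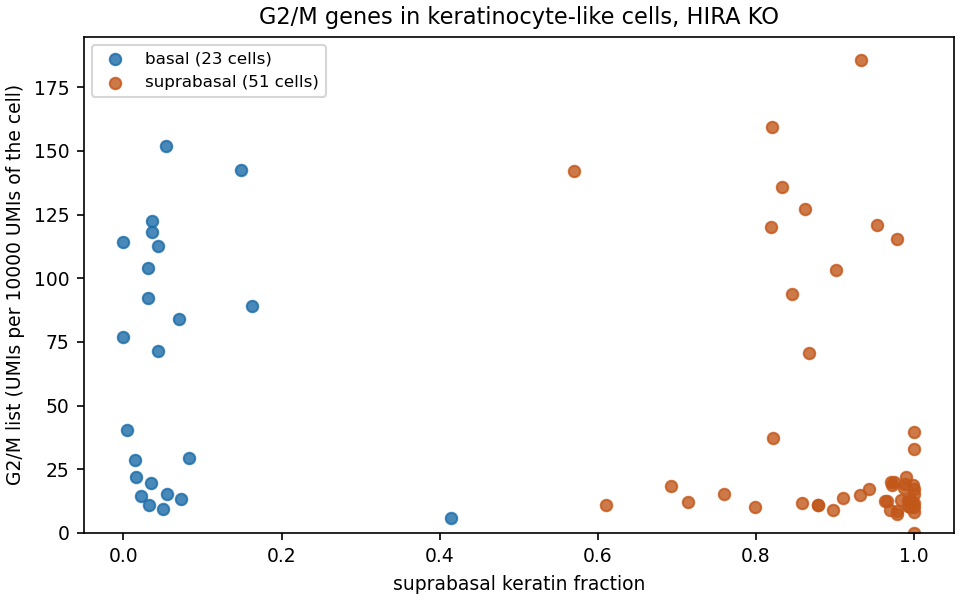
Each point is 1 HIRA KO keratinocyte-like cell, with its suprabasal fraction on the horizontal axis and its G2/M list UMIs per 10000 UMIs on the vertical axis. High cells, at 70.7 or more, number 12 of 23 basal (blue) and 11 of 51 suprabasal (orange), and no cell lies between 40.2 and 70.7.

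Other lists were read for chromatin, stress and signals to pigment cells. The list of HIRA complex and H3.3 genes had a log2 ratio of -0.81 (-0.92 to -0.69). *H3f3b*, which encodes H3.3, had 726 basal and 665 suprabasal UMIs, -1.09 (-1.24 to -0.94). Immediate early and dissociation stress genes had -0.39 (-0.53 to -0.24), with 3 of 9 read genes past 2-fold lower beside 8.08% of all genes, and the list's sign turned (0.0862) when *Krt15* was dropped from the class rule. The list sum hid members that moved in opposite ways, since *Hsp90aa1*, a heat shock chaperone, had -1.46 (-1.78 to -1.15) and *Fos*, an immediate early factor, 0.71 (0.32 to 1.11). The summed list of signals that act on melanoblasts did not differ at this depth, 0.18 (-0.35 to 0.73). *Cdh1*, an adhesion gene with a log2 ratio of 0.66, held 22 of its 44 basal and 68 of its 97 suprabasal UMIs. The sum therefore says little of the other members. *Kitl*, the ligand of the melanoblast receptor KIT, had 5 UMIs in the 74 cells, 7.06 CPM against 43.1 CPM in the other HIRA KO cells and 34.1 CPM in macrophage-gated cells. It was therefore no higher than in cells that should lack it, and *Edn3*, another melanoblast ligand, was at 0.

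Keratinocyte-like cells were set against all other HIRA KO cells to show where they differ, a contrast that the rule itself made. Of 7129 genes, 432 were past 2-fold higher (6.06%) and 1874 lower (26.3%), with a median of -0.27. All 7 read desmosome genes were past 2-fold higher, beside that 6.06%, with a median of 5.81. All 15 early spinous and all 11 cornified genes were too. Many of these genes reached the minimum only through the keratinocyte-like cells, so the counts describe the choice and nothing is read from them. Among the 15 genes with the largest ratios, *Dsc3*, a desmosomal cadherin, had 196 UMIs against 9 in the rest, a log2 ratio of 7.04 (6.09 to 8.19). *Gata3*, a factor of the epidermal barrier, had 6.48. *Krt6a*, *Krt4*, *Krt13* and *Krt19* also ranked there, and the periderm-like cell held 187 of 188, 137 of 137, 119 of 121 and 110 of 112 of their UMIs.

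Genes of other lineages were low but not at 0 in these cells. All 10 mesenchymal genes were detected, 1048 CPM in sum against 10032 CPM in the other HIRA KO cells, with *Dcn* the most abundant. Of 10 macrophage genes 9 were detected, at 84.7 against 1195 CPM, led by *Lyz2*. Of 8 erythroid genes 5 were detected, at 1248 against 28511 CPM, led by *Hbb-bs*, and macrophage-gated cells held 1345 CPM. All 10 glial genes were detected, at 282 CPM against 1372 CPM, led by *Pou3f1* with 68 of the 200 UMIs, a gene that keratinocytes also express, and macrophage-gated cells held 62.4 CPM (31.2 to 112). Erythroid RNA was thus as high in keratinocyte-like as in macrophage-gated cells. The part of free RNA in the small differences between classes was not tested.

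The 9 HIRA WT cells allowed only a coarse comparison. Between the 4 suprabasal and 5 basal HIRA WT cells the early spinous list had a log2 ratio of 1.94 (1.75 to 2.14), barrier lipid genes 2.24 (1.82 to 2.68) and cornified genes 2.44 (1.87 to 3.06). Desmosome genes had 0.84 (0.43 to 1.26) against 1.57 in HIRA KO, with 0.49 to 1.50 when each HIRA WT cell was left out. Epidermal transcription factors had 0.46 (-0.02 to 0.95). The basement membrane list had -2.59 (-4.33 to -1.19), the WNT list -2.63 (-4.18 to -1.35) and the G2/M list -2.29 (-2.76 to -1.85). Mesenchymal genes moved the same way, with 48 basal and 6 suprabasal UMIs (1925 and 207 CPM), -3.22 (-4.73 to -1.99). Of the 10 genes 5 were detected in basal and 4 in suprabasal cells, led by *Dcn* and *Col1a1*, and 5 were at 0 in both. A single basal cell held 32 of the 48 mesenchymal and 111 of the 219 basal G2/M UMIs, and the part of mesenchymal RNA in these differences was not tested. These lists had the sign seen in HIRA KO, except for cornified genes, whose HIRA KO sign turned on 1 cell, and the HIRA KO sign of mesenchymal genes turned at a minimum of 20 rule-gene UMIs. S phase genes did not, at 0.54 (-0.41 to 1.53) against -1.57 in HIRA KO, nor did NOTCH genes, at -0.02 (-0.80 to 0.76) against 0.82. Leaving out each of the 9 cells in turn gave 2.02 to 3.04 for barrier lipid, 1.97 to 3.09 for cornified, -3.76 to -2.16 for WNT, -3.52 to -2.15 for mesenchymal and -2.78 to -1.79 for G2/M genes. It gave -0.93 to 1.21 for S phase and -0.26 to 0.78 for NOTCH genes. Immediate early genes had 0.81 (0.41 to 1.23) in HIRA WT and -0.39 in HIRA KO, where the sign turned when *Krt15* was dropped.

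Between genotypes, suprabasal cells had nearly equal levels of early spinous genes, with a log2 ratio of HIRA KO to HIRA WT of -0.07 (-0.16 to 0.02). Epidermal transcription factors had 0.00 (-0.30 to 0.31) and cornified genes 0.02 (-0.19 to 0.25). Immediate early genes were lower in HIRA KO, -1.40 (-1.64 to -1.14), and G2/M genes higher, 1.06 (0.67 to 1.49), with 0.78 to 1.55 when each cell was left out in turn. S phase genes went the other way, -0.84 (-1.42 to -0.21), but lay between -1.19 and 0.63 when each cell was left out. These 3 differentiation lists thus did not differ by 2-fold between suprabasal cells, within counting error. Basal cells gave other values. There G2/M genes had -0.34 (-0.54 to -0.13), with -0.62 to 0.16 when each cell was left out, S phase genes 1.27 (0.55 to 2.09; 1.07 to 1.94) and immediate early genes -0.20 (-0.54 to 0.17). Cornified genes had 2.74 (2.21 to 3.32) in basal cells, and 0.97 when 1 cell was left out. Erythroid RNA of suprabasal cells differed more than any of these, at 4.25 (2.39 to 7.30), from 616 UMIs in HIRA KO and 2 in HIRA WT, and mesenchymal genes had 2.08 (0.95 to 3.54), from 411 and 6. In basal cells erythroid genes had 3.21 (1.65 to 5.50), from 268 and 3 UMIs, and glial genes 3.09 (0.57 to 8.41), from 82 and 1, which fell to 1.21 with 1 cell left out. Mesenchymal genes went the other way in basal cells, at -0.48 (-0.92 to -0.01), from 331 and 48 UMIs. They lay between -0.79 and 0.58 when each cell was left out. The part of these other-lineage genes in the differences above was not tested. Embryo, sex, genotype and free RNA cannot be told apart with 1 library each, and 4 suprabasal and 5 basal HIRA WT cells carry these ratios.

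Promoter windows are shown for 3 of the 6 rule genes because these genes move together or apart across the boundary. Of the 6, 4 had an entry among RefSeq promoters (GRCm38.p6), and each window is the 120 bases before the RefSeq start, 5′ to 3′ on the gene's strand. Capitals mark matches, on either strand, to a TATA box written TATAAA, to an AP-1 type motif written TGANTCA, to an AP-2 type motif written GCCNNNGGC or to a C/EBP type motif written TTNNGCAA, all chosen with the sequences in view. Of 32851 windows of this length, 6.34% held the TATA box, 3.41% the AP-1 type, 7.98% the AP-2 type and 4.15% the C/EBP type motif. The basal gene *Krt5* (chr15:101712906-101713025, minus strand) held none of these letters in its window. *Krt10* (chr11:99389365-99389484, minus strand) held the TATA box 26 to 21 bases and the C/EBP type motif 119 to 112 bases before the start. *Krtdap* (chr7:30787785-30787904, plus strand) held the TATA box 30 to 25 bases and the AP-1 type motif 81 to 75 bases before the start. A match is a description of letters and shows no binding.
Krt5: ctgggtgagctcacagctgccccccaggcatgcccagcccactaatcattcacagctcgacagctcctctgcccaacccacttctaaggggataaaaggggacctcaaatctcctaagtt
Krt10: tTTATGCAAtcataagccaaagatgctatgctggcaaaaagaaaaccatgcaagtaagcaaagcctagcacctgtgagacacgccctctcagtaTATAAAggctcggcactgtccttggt
Krtdap: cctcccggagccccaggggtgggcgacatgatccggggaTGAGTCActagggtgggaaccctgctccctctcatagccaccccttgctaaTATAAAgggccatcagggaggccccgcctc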

How the data were processed

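The deposited files held UMI counts per gene and barcode, which the authors made with Cell Ranger 2.2.0 on mm10. Both libraries listed 28000 genes and were read in Python 3.11.15 with numpy 2.4.6, scipy 1.17.1 and pandas 2.3.3, and drawn with matplotlib 3.10.9. Barcodes with at least 100 genes and at most 10% mitochondrial UMIs were kept. Depth per library is given with the results. Each class was treated as a pool, with a gene's UMIs scaled to the pool's total (CPM). Intervals were exact Poisson for CPM, exact conditional binomial for ratios and Clopper-Pearson for shares. Genes needed 50 UMIs over both groups to be read. A count of 0 was read as at most 3 counts. Macrophage-gated cells held at least 10 UMIs of *C1qa*, *C1qb* and *C1qc* and fewer than 30 of the rule genes. The members and the 32 gene lists were chosen with earlier results of these data known. Genes were named from these lists, or as the 15 largest and 15 smallest suprabasal to basal ratios and the 15 largest keratinocyte-like to rest ratios (at least 100 UMIs), without rule genes, mitochondrial genes and Gm or Rik models. Likely doublets were scored with Scrublet (scanpy 1.11.5, anndata 0.12.19) and kept. Alternatives varied the minimum keratin count, the pigment limit, the cell filters, thinning to 2000 UMIs, the class rule, the averaging and scaling, the gene minimum, and single cells left out. Coordinates follow GENCODE M21 on GRCm38.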

Additional observations from a re-analysis of the deposited data

How the results depend on the processing

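All 4 shares stayed within their counting intervals under 17 alternatives. The keratinocyte-like share ran from 7.94% to 9.54% in HIRA KO and from 0.455% to 0.714% in HIRA WT, and the suprabasal share from 64.6% to 71.6% and from 36.4% to 57.1%. Of the 18 gene lists, the values of basement membrane, desmosome, barrier lipid, EGF and FGF, melanoblast signal and S phase genes stayed within their intervals throughout. The values below are log2 ratios of suprabasal to basal cells in HIRA KO that left theirs, and the cause was not tested unless stated.

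A minimum of 20 UMIs of the 6 genes gave 1.05 for cell cycle exit, -0.23 for immediate early and 0.73 for mesenchymal genes. A minimum of 50 gave -0.40 for cornified envelope and 1.43 for early spinous genes. Without the pigment limit other keratins had -3.68, and at most 5% mitochondrial UMIs gave -1.01 for G2/M. Leaving out Scrublet calls gave -4.56 for other keratins and -2.34 for WNT genes. Thinning to 2000 UMIs gave 0.00765 for cornified envelope, -4.02 for periderm, 0.47 for NOTCH, -0.49 for G2/M, 1.32 for cell cycle exit and -0.56 for immediate early genes.

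When *Krt15* was dropped from the class rule, the periderm-like cell and the basal cell nearest the boundary changed side, so 53 of 74 were suprabasal. Periderm genes then reversed to 4.25 and other keratins to 0.30, and cornified envelope genes had 2.2. Epidermal transcription factors had 0.91, other junctions -0.22, early spinous 1.69, WNT -1.68, G2/M -1.07 and immediate early genes 0.0862. Leaving out fractions of 0.4 to 0.6 gave 1.62 for early spinous, -1.10 for G2/M and -0.0766 for immediate early genes. The mean over cells gave 0.32 for cornified envelope, -3.59 for other keratins, -4.12 for periderm, -0.74 for G2/M and -0.58 for immediate early genes. CPM without the rule genes gave 1.59 for early spinous genes and moved the median of all genes from -0.05 to 0.01. Without the periderm-like cell, cornified envelope had 1.50, early spinous 1.63, other keratins -2.81 and periderm genes, reversed, 0.52.

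Counts of genes past 2-fold followed the number of genes read. Suprabasal to basal, 438 were higher and 383 lower at 20 UMIs per gene, 78 and 62 at 100 UMIs, and 43 and 26 after thinning. Keratinocyte-like to rest, 870 were higher at 20 UMIs, 231 higher and 1154 lower at 100 UMIs, and 187 and 964 after thinning. The alternatives that left out the periderm-like cell, the *Lor* cell or the cells under 0.5% mitochondrial UMIs, and all those for keratinocyte-like to rest, were chosen after seeing the data.

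No paired analysis was possible because each genotype had 1 library from 1 embryo. Variation between embryos could not be measured, and the 9 HIRA WT cells limit every comparison of genotypes. The 23 basal HIRA KO cells limit scarce genes, since a count of 0 in them allows up to 12.5 CPM.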

Other observations

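A set of 3 HIRA KO keratinocyte-like cells, chosen after its values were seen, held 162 of the 165 UMIs of *Krt79* (ENSMUSG00000061397, chr15:101929332-101940324), a keratin of the hair canal and sebaceous duct. No other member held more than 1. The 3 cells held 24, 94 and 44 *Krt79* UMIs at suprabasal fractions of 0.0732, 0.415 and 0.714, so 2 were basal and 1 suprabasal. The suprabasal cell was the member that Scrublet called a likely doublet, and it held 61 mesenchymal UMIs, the most of any member. They held 1, 0 and 1 UMIs of *Krt14*, while *Krt15* gave 28, 94 and 47 and *Krt17* gave 72, 74 and 15. *Sostdc1*, a WNT and BMP modulator of placodes, had 56 of its 119 member UMIs in them. *Gata6* and *Krt75* were at 0 in these cells.

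A set of 9 of the 51 suprabasal HIRA KO cells, also chosen after its values were seen, had under 0.5% mitochondrial UMIs. They held 26 mitochondrial UMIs in all and at most 0.228% per cell, while the other suprabasal cells held at least 1.85%. None of the 23 basal cells was in this range, and 18 of 754 other HIRA KO cells were. The 9 cells had a median of 1977 UMIs, against 10083.5 in the other 42. *Malat1*, a nuclear RNA, gave 10 UMIs in them, a log2 ratio to the other suprabasal cells of -4.15 (-5.21 to -3.27). Ribosomal protein genes had 0.21 (0.18 to 0.25), *Krt1* -0.20 (-0.36 to -0.05) and *Krtdap* 0.93 (0.79 to 1.06). The cornified envelope list had 1.17 (0.99 to 1.35), and 92 of its 298 UMIs were *Lor* from 1 cell.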
